A study of Arabidopsis thaliana with 8 samples.

Results

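The 49 entries described here are the mature miRNAs of Arabidopsis thaliana whose family number lies below 770, apart from the conserved families that act mainly on developmental regulators and nutrient genes. They were picked by number from 427 mature miRNAs in the small RNA count tables, with 378 entries left outside, by a rule that uses no measured value. They belong to 27 families and include the miRNAs that act on the silencing machinery itself (miR162, miR168 and miR403), those that start the production of trans-acting siRNAs (miR173 and miR390), and a mixed set of mostly young miRNAs. Inflorescences of janus-2 were compared with inflorescences of Col-0, the wild type in which the mutant was made, with 2 small RNA libraries and 2 mRNA libraries of each genotype. janus-2 is a single hypomorphic CRISPR/CAS9 allele of JANUS, a gene for a spliceosome-associated protein, carrying a small deletion in an exon. The line was backcrossed to Col-0 and the mutant is sterile. All plants were untreated and grew with 16 h of light and 8 h of dark at 22 °C, and no plant age is given in the sources used here. The study asked whether JANUS is needed for the accumulation of miRNAs.

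In plants a miRNA is cut by DCL1 from the stem of a folded precursor as a short duplex. The arm that is kept in an Argonaute protein is the guide, and the opposite arm, often written star or passenger, is usually degraded. DCL1 and AGO1 are themselves cut under the direction of miR162 and miR168, and AGO2 under that of miR403, so these miRNAs close feedback loops on the pathway that makes them. Cleavage of the TAS1 and TAS2 transcripts guided by miR173 in AGO1, and of the TAS3 transcripts guided by miR390 in AGO7, starts the synthesis of double-stranded RNA by RDR6 and SGS3, which DCL4 dices into phased siRNAs. The TAS3 siRNAs repress ARF2, ARF3 and ARF4, transcription factors of auxin signalling that set organ polarity and the timing of developmental phases.

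The oligonucleotides that the study used for a trigger and for a feedback miRNA are shown because they carry the 3′ end of miR173 and the 3′ arm of pre-miR162b. Their own readouts were not analysed here.
miR173 stem-loop RT primer: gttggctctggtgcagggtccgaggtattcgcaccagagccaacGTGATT
miR173 forward primer: gttggcttcgcttgcagagag
pre-miR162b reverse primer: ctggatgcagaggtttatcgatc
Capitals in the first primer mark the 6 bases at its 3′ end that anneal to the 3′ end of miR173, and the 44 bases in front of them form a stem-loop that the other stem-loop primers of the study share. The 5′ part of the forward primer carries the same opening bases as the stem-loop, followed by bases of the miRNA itself. The pre-miR162b primer was used for the precursor and reads as the complement of its 3′ arm, the arm that yields miR162b-3p.

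The small RNA libraries held 2104474 and 1950664 counts on miRNA entries in janus-2, and 2160372 and 2043025 in Col-0. These counts made up between 2.81% and 3.52% of the sum of counts on entries, outside entries and ambiguous. That sum is called all aligned reads below. Near-identical entries each hold the reads they share, so a read can be counted more than 1 time in these totals. The mRNA libraries held between 56360882 and 65578130 counts on genes. Replicates had a common coefficient of variation of 25.5% in the small RNA libraries and of 2.26% in the mRNA libraries, so that a small fold change could be called for an mRNA and not for a miRNA. JANUS mRNA stood at 18.3 and 19.4 CPM (counts scaled to a common library size with TMM factors) in janus-2, against 54.9 and 54.2 CPM in Col-0, and both mutant libraries therefore lay below both wild-type libraries. Its log2 fold change was -1.53 (SE 0.07, adjusted p = 4.26e-214, quasi-likelihood test of edgeR, Benjamini-Hochberg adjusted). Of 10 pollen markers, 8 could be tested and all 8 were lower in janus-2, with summed levels of 16.8 and 18.2 CPM in janus-2 and 2938 and 2921 CPM in Col-0. MGH3, a histone of the male germline, was at 0 in both janus-2 libraries, and BUPS1 and GEX2 were at 0 in all 4 mRNA libraries. All 9 tapetum markers were lower as well, at 96.0 and 93.4 CPM in sum in janus-2 and 752 and 748 CPM in Col-0. Of 6 flower markers, AP3 and PI were lower and 4 were not called. In whole inflorescences, fewer cells of a type and less RNA per cell cannot be told apart, and the part of the missing pollen and tapetum RNA in the results below was not tested.

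Among the low-number miRNAs, the passenger strands of miR390 passed the test with TMM scaling. miR390b-3p and miR390a-3p fell in janus-2. No entry was called higher in this main fit, which used all entries, all libraries and no block for the replicate number. Other scalings, near-identical entries counted 1 time, a block for the replicate number or a left-out library added calls. These calls were for the miR390 guide, miR391-3p and other entries named below. Of the 49 entries, 8 were at 0 in all 4 libraries, 1 never exceeded 3 counts, and 40 exceeded 3 counts in at least 1 library. The filter on low counts left 35 for the test, of which 2 were lower and 0 higher at an adjusted p of at most 0.05 with no fold threshold, 5.71% in all. Over the 304 entries tested, 14.1% were lower and 18.1% higher, 32.2% in all. At an unadjusted p below 0.05 the numbers were 6 of 35 and 121 of 304. DESeq2 also called 2 lower and 0 higher.

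The median log2 fold change was 0.22 over the 35 entries tested, against 0.11 over all 304. The median of the absolute log2 fold change was 0.40 over the 35 entries and 0.59 over all 304. Both janus-2 libraries lay below both Col-0 libraries for 7 of the 35 entries (20%) and above them for 15 (42.9%), where the background over all tested entries was 29.3% and 38.5%. Log2 fold changes of single entries ran between -2.71 and 1.00. TMM scaling sets the zero of this scale, and the medians moved with it. Dividing by the library totals shifted the median of all 304 entries by -0.18, and dividing by all aligned reads shifted it by -0.35. After the division by aligned reads the median was -0.16 for the 35 entries and -0.23 for all 304.

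**Figure D1:**
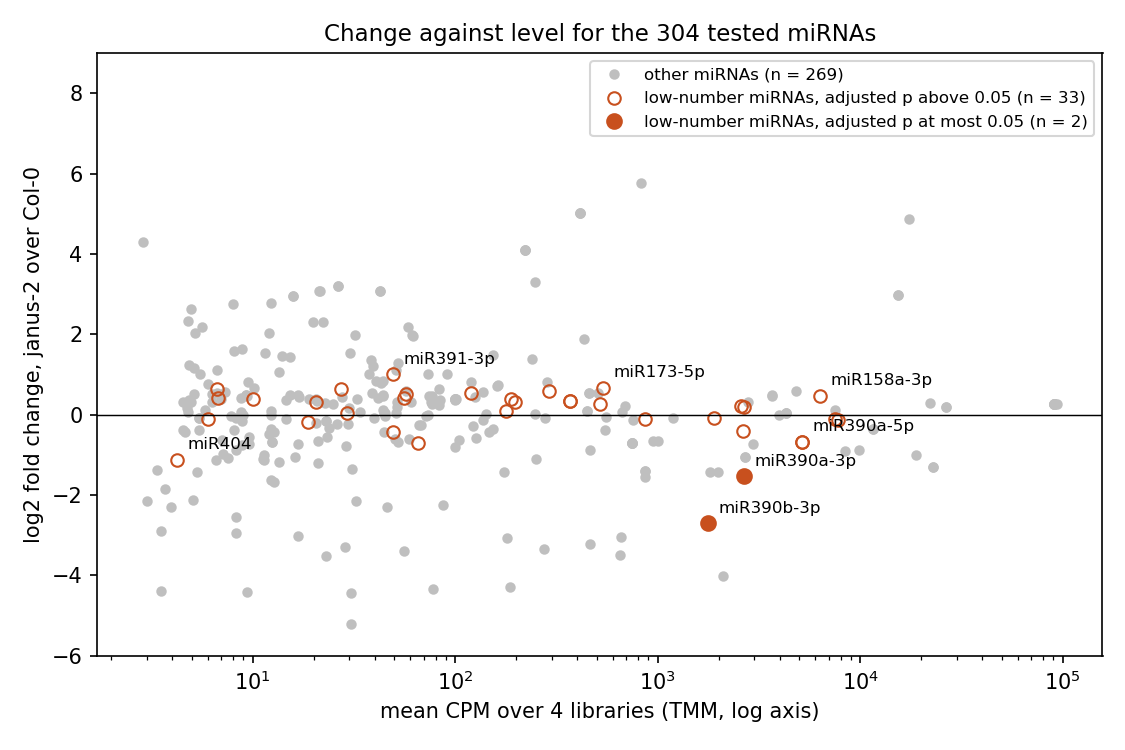
Log2 fold change (janus-2 over Col-0) of each of the 304 tested miRNAs, plotted against its mean CPM over the 4 libraries on a log axis. Filled orange points are the 2 called low-number miRNAs, miR390a-3p and miR390b-3p, open orange points the other 33, and grey points the 269 other miRNAs. All orange points lie between -2.71 and 1.00, and the grey points between -5.20 and 5.76. The medians of the absolute log2 fold change are 0.40 for the orange and 0.67 for the grey points.

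miR390 is the trigger of the TAS3 siRNAs, and its guide is the 5p strand. The passenger strand of the second locus, miR390b-3p, stood at 487 and 457 CPM in janus-2, against 3241 and 2923 CPM in Col-0. The strand of the first locus, miR390a-3p, stood at 1519 and 1226 CPM in janus-2 and at 4083 and 3871 CPM in Col-0. For each of these strands the mutant and wild-type libraries were far apart and the replicates close together. miR390b-3p averaged 472 ± 20.8 CPM in janus-2 and 3082 ± 225 CPM in Col-0 (SD, n = 2 each), a level 0.153 times that of Col-0, with a log2 fold change of -2.71 (SE 0.32, adjusted p = 0.00017, edgeR). miR390a-3p averaged 1372 ± 207 CPM in janus-2 and 3977 ± 150 CPM in Col-0 (SD, n = 2 each), with a log2 fold change of -1.54 (SE 0.33, adjusted p = 0.00202, edgeR). Both remained called under every scaling tried, with DESeq2, with the replicate block and with any 1 library left out. Over these alternatives the log2 fold change lay between -3.08 and -2.62 for miR390b-3p and between -1.90 and -1.41 for miR390a-3p.

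The guide strand, miR390a-5p, was less clear. It stood at 3654 and 4282 CPM in janus-2 and at 4727 and 7924 CPM in Col-0, the second Col-0 library being high. The mutant libraries lay below both Col-0 libraries, but the log2 fold change of -0.67 (SE 0.37) did not pass the test (adjusted p = 0.108, edgeR). It passed when the libraries were divided by their totals (-0.85, adjusted p = 0.0332) or by all aligned reads (-0.999, adjusted p = 0.00976), and not with the size factors of DESeq2 (-0.76, adjusted p = 0.0548). Without replicate 1 of Col-0 it was -0.98 (adjusted p = 0.000293), and with the other libraries left out in turn it did not pass. miR390b-5p held nearly the same counts, 7239 against the 7254 of miR390a-5p in the first janus-2 library, and these entries were treated as sharing their reads.

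Taking each set of shared reads only 1 time, miR390 made up 1.63% and 1.62% of all miRNA counts in janus-2, against 3.54% and 4.41% in Col-0. The other 42 distinct entries together made up 7.23% and 7.18% in janus-2 and 7.17% and 7.15% in Col-0. The summed share of the low-number miRNAs, 8.86% and 8.80% in janus-2 against 10.7% and 11.6% in Col-0, thus differed between the genotypes mainly at miR390. Single families among the other entries differed in opposite directions. The share of miR168 was 2.57% and 2.87% in janus-2 and 3.14% and 3.46% in Col-0. That of miR158 was 2.37% and 2.26% in janus-2 and 2.09% and 1.64% in Col-0. These shares carry no test.

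The balance of both strands within a library does not depend on how libraries are scaled. At miR390b the 5p count, shared with miR390a, was 7.49 and 9.36 times the 3p count in janus-2. In Col-0 it was only 1.46 and 2.71 times the 3p count. The ratio was 4.22 times higher in janus-2, a change of 2.08 on the log2 scale (adjusted p = 0.00702, edgeR's quasi-likelihood test of the interaction of arm and genotype). Of 12 loci with both arms in the list, 11 could be tested, and miR390b alone was called, with a higher ratio. Over all 64 loci tested, 3.12% had a higher and 6.25% a lower ratio in janus-2, 9.38% together. At an unadjusted p below 0.05 the numbers were 3 of 11 and 15 of 64. Leaving out replicate 1 or 2 of janus-2 ended the call for miR390b (2.24, adjusted p = 0.179, and 1.92, adjusted p = 0.237), as did a block for the replicate number in limma (2.08, adjusted p = 0.111), while the change itself lay between 1.63 and 2.52 with any 1 library left out. At miR390a the ratio was 2.41 and 3.49 in janus-2 and 1.16 and 2.05 in Col-0, a change of 0.91 (adjusted p = 0.208), in the same direction and not called. Without replicate 2 of Col-0 it was 1.32 and passed (adjusted p = 0.0174). The 5p counts of these loci are shared, so the ratios are not independent. Each ratio sets 5p reads of both loci against 3p reads of 1 locus. It therefore cannot tell a change of strand balance from a change of 1 locus relative to the other. The same limit holds for miR162 and miR168, each with 1 shared strand.

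**Figure D2:**
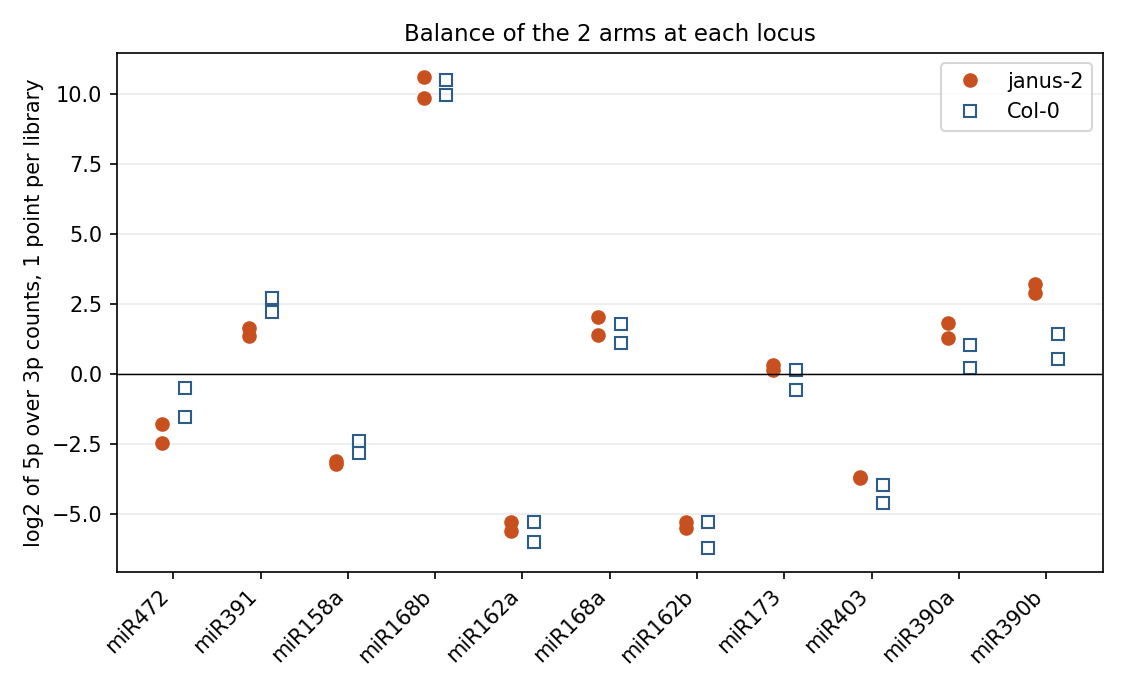
Log2 of the 5p count over the 3p count at the 11 tested loci, 1 point per library, with janus-2 as filled circles on the left and Col-0 as open squares on the right of each locus. Loci are ordered by the change between genotypes. miR390b has the largest upward shift, with all janus-2 points above all Col-0 points.

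In the opposite direction, miR472 had the largest change. Its 5p strand was 0.291 and 0.178 times its 3p strand in janus-2 and 0.340 and 0.697 times in Col-0, a change of -1.09 (adjusted p = 0.183) that passed without replicate 1 of Col-0 (-1.59, adjusted p = 0.00938).

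The 5p strand of miR391, a relative of miR390, was 2.56 and 3.10 times its 3p strand in janus-2 and 6.57 and 4.59 times in Col-0, a change of -0.96 (adjusted p = 0.182). The 3p strand of this locus had the highest fold change of the list. It stood at 68.0 and 63.2 CPM in janus-2 and at 23.1 and 42.4 CPM in Col-0, with a log2 fold change of 1.00 that missed the threshold (SE 0.46, adjusted p = 0.0590, edgeR). It was called with near-identical entries counted 1 time (1.08, adjusted p = 0.00700) and without replicate 2 of Col-0 (1.46, adjusted p = 0.00195). The 5p strand differed little, at 174 and 196 CPM in janus-2 and 152 and 195 CPM in Col-0. miR391-3p lies below the 100 CPM set for printing single libraries and was singled out after its values were seen.

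The trigger of the TAS1 and TAS2 siRNAs was not lower in the mutant libraries with TMM scaling. The guide strand, miR173-5p, stood at 695 and 627 CPM in janus-2 and at 517 and 317 CPM in Col-0. The passenger strand, miR173-3p, stood at 560 and 564 CPM in janus-2 and at 469 and 473 CPM in Col-0. With this scaling the janus-2 libraries lay above the Col-0 libraries without overlap for both strands, yet neither passed the test. The log2 fold change was 0.66 for miR173-5p (SE 0.40, adjusted p = 0.216, edgeR) and 0.26 for miR173-3p (SE 0.31, adjusted p = 0.579, edgeR). Division by all aligned reads gave 0.27 for miR173-5p and turned miR173-3p to -0.10. Leaving out replicate 1 of Col-0 brought miR173-5p to 1.07 (adjusted p = 0.0416).

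None of the miRNAs that act on DCL1, AGO1 and AGO2 passed the test, although the libraries of the genotypes did not overlap for several of their strands. miR162a-3p, the guide against DCL1, stood at 2806 and 2746 CPM in janus-2 and at 2675 and 2107 CPM in Col-0, a log2 fold change of 0.22 (SE 0.34, adjusted p = 0.556). miR162b-3p shares these reads. The passenger strand miR162a-5p stood at 57.9 and 69.8 CPM in janus-2 and at 41.5 and 54.1 CPM in Col-0, and its counterpart miR162b-5p at 62.0 and 72.0 CPM in janus-2 and at 37.2 and 56.4 CPM in Col-0. All of these strands lay above Col-0 in both mutant libraries, by margins within the test's error. Division by all aligned reads turned the guide strand to -0.16.

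miR168a-5p, the guide against AGO1 and the most abundant entry of the list, stood at 6457 and 8474 CPM in janus-2 and at 7300 and 8958 CPM in Col-0. Its groups overlapped, and the log2 fold change was -0.12 (SE 0.33, adjusted p = 0.694). miR168b-5p shares these reads. miR168a-3p, the passenger strand, stood at 2476 and 2075 CPM in janus-2, below the 3408 and 2579 CPM of Col-0, with a log2 fold change of -0.40 (SE 0.35, adjusted p = 0.320). miR168b-3p was rare, with 13 and 9 counts in janus-2 and 16 and 12 counts in Col-0.

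miR403-3p, the guide against AGO2, stood at 2036 and 1660 CPM in janus-2 and at 1592 and 2308 CPM in Col-0. The mutant libraries thus lay between the wild-type ones, and the log2 fold change was -0.08 (SE 0.35, adjusted p = 0.888). The passenger strand miR403-5p stood at 154 and 131 CPM in janus-2, above the 101 and 94.2 CPM of Col-0, without passing the test (0.55, SE 0.36, adjusted p = 0.220).

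**Figure D3:**
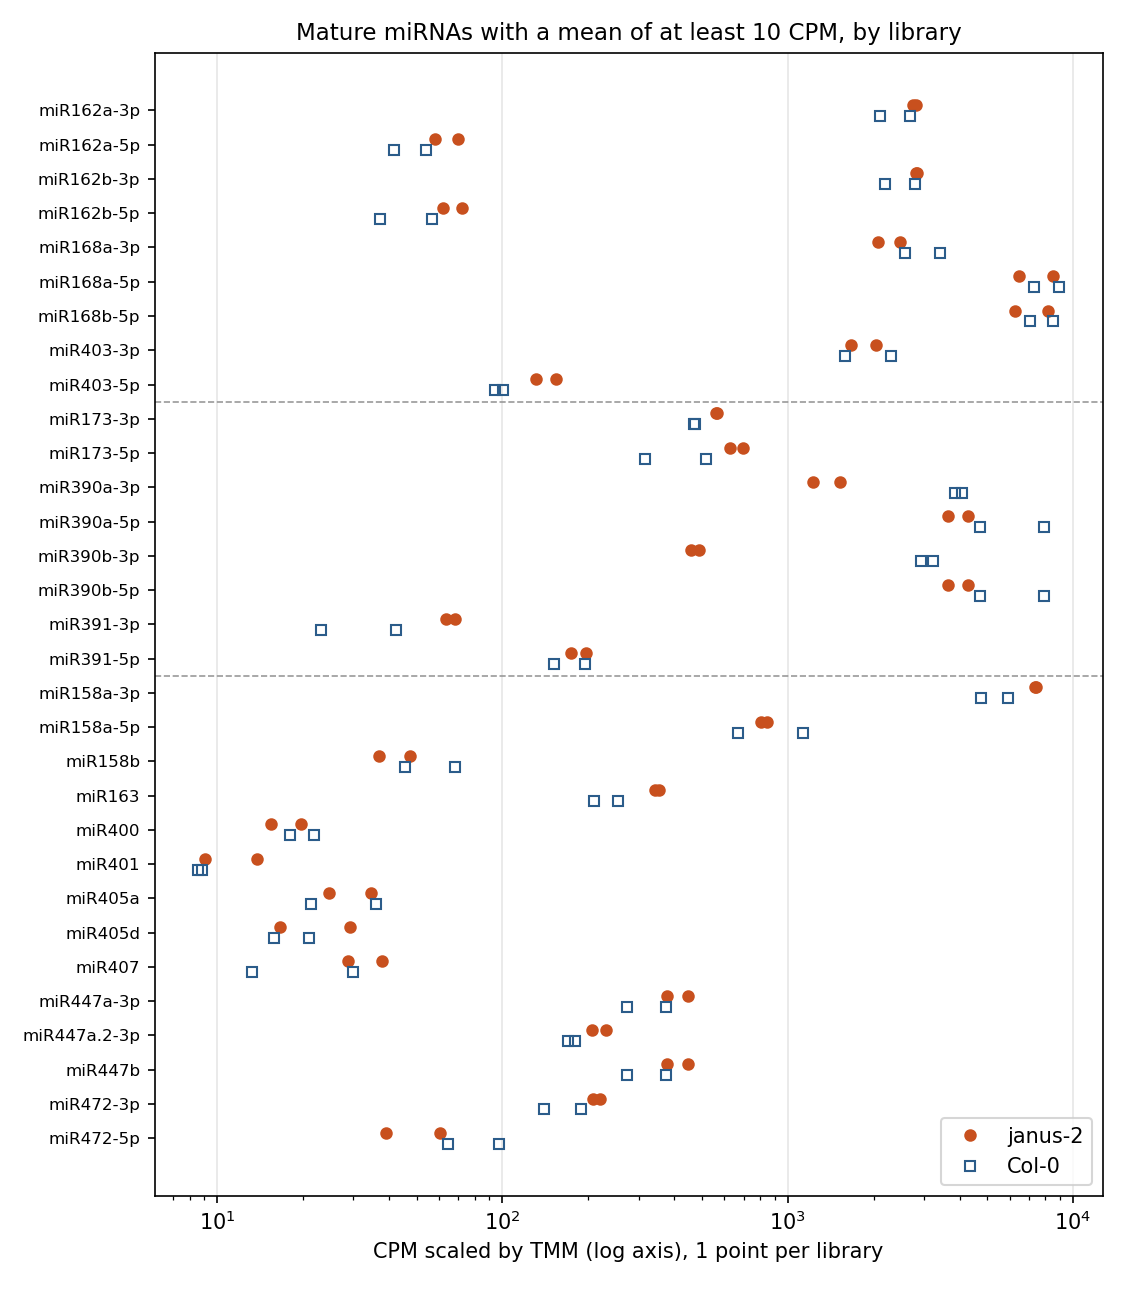
CPM of the entries with a mean of at least 10 CPM, on a log axis, with 1 point per library, janus-2 as filled circles above and Col-0 as open squares below in each row. Dashed lines separate the miRNAs that act on the silencing machinery, those of the miR173 and miR390 group with miR391, and the rest. miR390a-3p and miR390b-3p have the widest gaps between genotypes, while the points of miR168a-5p and miR403-3p overlap.

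The remaining abundant entries belong to young families. miR158a-3p, whose known targets include a pentatricopeptide repeat (PPR) gene, stood at 7367 and 7442 CPM in janus-2 and at 5909 and 4754 CPM in Col-0. The mutant libraries lay above the wild-type libraries, and the log2 fold change of 0.47 did not pass (SE 0.33, adjusted p = 0.125). It passed without replicate 1 of Col-0 (0.65, adjusted p = 0.0218). Its passenger strand miR158a-5p stood at 846 and 807 CPM in janus-2, inside the range of 1128 and 668 CPM in Col-0. miR163, which acts on a family of methyltransferase genes, stood at 354 and 341 CPM in janus-2 and at 209 and 254 CPM in Col-0 (0.59, SE 0.32, adjusted p = 0.222). These groups did not overlap.

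miR447a-3p, whose counts are identical to those of miR447b in all libraries, stood at 378 and 446 CPM in janus-2 and at 272 and 374 CPM in Col-0 (0.35, SE 0.34, adjusted p = 0.495). The second product of the locus, miR447a.2-3p, stood at 231 and 206 CPM in janus-2 and at 170 and 179 CPM in Col-0 (0.32, SE 0.33, adjusted p = 0.494). miR472-3p, which acts on disease resistance genes of the NBS-LRR class, stood at 208 and 219 CPM in janus-2 and at 189 and 140 CPM in Col-0 (0.38, SE 0.37, adjusted p = 0.452). Both mutant libraries were the higher ones for each of these miRNAs, and none passed the test. The opposite arm, miR472-5p, lay below Col-0, at 60.4 and 39.0 CPM in janus-2 and 64.2 and 97.4 CPM in Col-0 (-0.70, adjusted p = 0.176). It was called only after division by all aligned reads (-1.02, adjusted p = 0.0201) and without replicate 1 of Col-0, and was singled out after its values were seen.

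A tail of rare entries carried little information. miR158b lay between 36.8 and 68.0 CPM. miR400, miR401, miR404, miR405a, miR405b, miR405d, miR406 and miR407 lay between 2.01 and 37.9 CPM in single libraries, with log2 fold changes between -1.12 and 0.65 and no call with TMM and all libraries. miR404, with 4 and 6 counts in janus-2 and 14 and 12 counts in Col-0, was called lower only after division by all aligned reads (-1.47, adjusted p = 0.0450), and miR407 was called higher only without replicate 2 of Col-0 (1.28, adjusted p = 0.0101). The entries miR402, miR414, miR416, miR447c-3p and miR447c-5p had at most 10 counts in any library and were not tested. miR413, miR415, miR417, miR418, miR419, miR420 and miR426 were at 0 in all 4 libraries. So was miR161.1, while miR161.2 had 0 and 1 counts in janus-2 and 1 and 0 counts in Col-0. The miR161 guides overlap each other on a shared precursor and direct the cleavage of PPR transcripts. Whether reads that overlap both miR161 entries were set aside as ambiguous is not given in the sources used here, so these counts do not show how much miR161 the inflorescences held. A count of 0 allows a level of up to 3 counts, which is 1.39 to 1.54 CPM before scaling, for counting error only.

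The mRNA libraries gave the transcripts on which these miRNAs are known to act, together with ARF2, ARF3 and ARF4, on which the TAS3 siRNAs act. Of 29 such target genes, 25 were tested, of which 6 were lower and 5 higher by at least 1.5 times with an adjusted p up to 0.05, while 14 were not called. The background over all 22990 tested genes was 27.2% lower and 18.5% higher, 45.7% in all. The median log2 fold change was -0.10 over the targets and -0.02 over all genes. DCL1, AGO1 and AGO2, the targets in the feedback loops, all missed the fold threshold. AGO1 stood at 232 and 231 CPM in janus-2 and at 339 and 341 CPM in Col-0 (-0.55, SE 0.02), and DCL1 at 59.2 and 60.7 CPM in janus-2 and at 76.1 and 79.2 CPM in Col-0 (-0.37, SE 0.05). AGO2 stood at 35.1 and 33.8 CPM in janus-2 and at 27.0 and 24.3 CPM in Col-0 (0.43, SE 0.08). These are small differences with very little spread, and each passed the test when no fold was asked for (largest adjusted p = 6.69e-17, edgeR).

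All 3 TAS3 transcripts, the substrates of miR390, fell. TAS3 stood at 8.61 and 8.45 CPM in janus-2 and at 19.7 and 18.3 CPM in Col-0, a log2 fold change of -1.15 (SE 0.11, adjusted p = 2.42e-50). At low counts, TAS3C had a log2 fold change of -1.04 (SE 0.34, adjusted p = 3.55e-05, edgeR) and TAS3B one of -0.85 (SE 0.41, adjusted p = 0.00585, edgeR). The call of TAS3B was lost with DESeq2 (adjusted p = 0.0528) and without replicate 2 of Col-0 (adjusted p = 0.0935). Of the genes that TAS3 siRNAs act on, ARF4 rose, at 98.7 and 98.4 CPM in janus-2 and 49.8 and 47.6 CPM in Col-0 (1.02, SE 0.05, adjusted p = 1.71e-186). ARF3 stood at 73.1 and 73.3 CPM in janus-2, between the 75.0 and 71.7 CPM of Col-0, and ARF2 at 326 and 327 CPM in janus-2 and at 376 and 381 CPM in Col-0, under the fold threshold (-0.21, SE 0.02).

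The substrates of miR173 moved apart. TAS2 rose, at 32.0 and 30.6 CPM in janus-2 and 15.4 and 15.5 CPM in Col-0 (1.02, SE 0.08, adjusted p = 3.13e-66). TAS1B fell, at 3.58 and 4.14 CPM in janus-2 and 6.43 and 5.67 CPM in Col-0 (-0.65, SE 0.18, adjusted p = 3.37e-07), but dropped under the fold threshold without replicate 1 of janus-2 (-0.54) or of Col-0 (-0.56). TAS1A had a log2 fold change of 0.17 (SE 0.19) and TAS1C one of -0.10 (SE 0.13), and neither passed the test.

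Among the targets of the young families, both tested methyltransferase genes for miR163 rose. FAMT, which methylates farnesoic acid, stood at 1.33 and 1.16 CPM in janus-2 and at 0.141 and 0.348 CPM in Col-0 (2.30, SE 0.51, adjusted p = 4.69e-10). AT1G66690 stood at 1.47 and 1.499 CPM in janus-2 and at 0.742 and 0.894 CPM in Col-0 (0.85, SE 0.36, adjusted p = 0.00158). PXMT1, AT1G66720 and AT3G44870 of the same family had at most 11 counts in any library and were not tested. These genes are close paralogs, so that reads may be split between them. AT5G43740, an NBS-LRR gene and target of miR472, rose, at 22.1 and 21.6 CPM in janus-2 and 8.13 and 7.11 CPM in Col-0 (1.53, SE 0.11, adjusted p = 1.13e-88, edgeR). AT1G51480, another target of miR472 in the list, had at most 5 counts in any library and was not tested.

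AT5G60760, a target of miR447, showed the largest difference of the tested targets. It stood at 3.29 and 3.29 CPM in janus-2 and at 27.0 and 26.5 CPM in Col-0 (-3.02, SE 0.12, adjusted p = 3.74e-264). AT3G45090, the other target of miR447 in the list, stood at 84.2 and 79.8 CPM in janus-2 and at 69.8 and 63.3 CPM in Col-0, under the fold threshold (0.30, SE 0.05). DML3, a DNA demethylase gene and target of miR402, fell, at 2.64 and 2.40 CPM in janus-2 and 9.08 and 8.01 CPM in Col-0 (-1.75, SE 0.18, adjusted p = 7.76e-44). miR402 itself had 10 and 2 counts in janus-2 and 5 and 4 counts in Col-0. None of the 5 tested PPR targets of miR158, miR161 and miR400 was called. With no fold threshold, AT1G06580 (-0.32, adjusted p = 0.0127) and AT3G03580 (-0.28, adjusted p = 0.0288) passed edgeR's test, and the others did not. Pollen and tapetum markers fell in these same mRNA libraries, at the summed levels given above.

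Genes that make or use these small RNAs were not called. Of 16 such genes, all tested, 0 were lower and 0 higher at a fold of at least 1.5, against 45.7% called in all over the tested genes. At an adjusted p of at most 0.05 alone, 6 were lower and 7 higher in edgeR's test, and 13 passed at an unadjusted p below 0.05. The background without a fold threshold was 42.5% lower and 40.6% higher, 83.1% in all. The serrate gene SE, a cofactor of DCL1, stood at 132 and 126 CPM in janus-2 and at 86.9 and 88.3 CPM in Col-0 (0.56, SE 0.04). It crossed the fold threshold without replicate 2 of janus-2 (0.59), as did TGH, another DCL1 cofactor, without replicate 1 of Col-0 (0.59). AGO7, the partner of miR390, stood at 17.1 and 15.0 CPM in janus-2 and at 21.6 and 23.0 CPM in Col-0 (-0.47, SE 0.10). RDR6, SGS3 and DCL4, which turn TAS transcripts into siRNAs, had log2 fold changes of 0.04, -0.08 and 0.08, none of which passed the test.

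**Figure D4:**
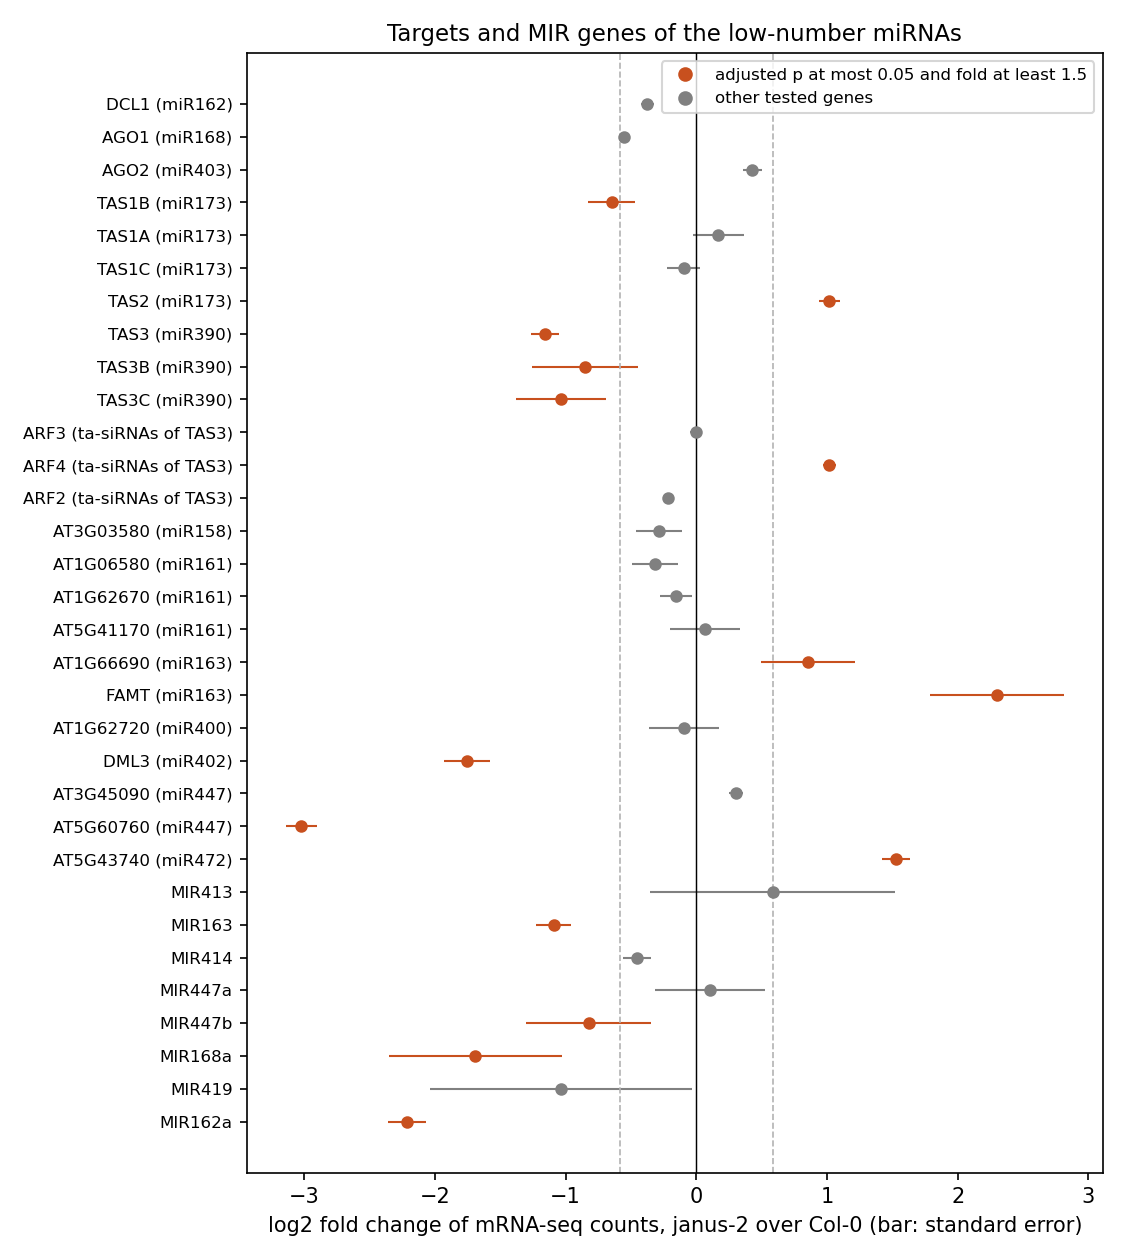
Log2 fold change (janus-2 over Col-0) of the mRNA-seq counts of 24 of the 25 tested target genes, with the small RNA that acts on each in brackets, and of the 8 tested MIR genes at the bottom. Bars are standard errors of DESeq2, orange points are genes called at a fold of at least 1.5, and dashed lines mark that fold. The TAS3 genes and AT5G60760 lie to the left of 0, while TAS2, ARF4, FAMT and AT5G43740 lie to the right.

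Most precursor genes gave too few reads in the mRNA libraries to be tested. Of 34 MIR genes of these families in the table, 21 had at most 3 counts in every library, and 16 of these were at 0 in all 4 libraries. Of the 34, 8 were tested, of which 4 were lower and 0 higher, against 27.2% lower and 18.5% higher over all tested genes. MIR162a stood at 3.56 and 2.91 CPM in janus-2 and at 14.5 and 15.5 CPM in Col-0 (-2.21, SE 0.14, adjusted p = 1.14e-103). MIR163 stood at 5.98 and 5.23 CPM in janus-2 and at 11.9 and 12.0 CPM in Col-0 (-1.09, SE 0.13, adjusted p = 1.49e-29). The precursor transcripts of these loci thus fell. The mature miR162a-3p and miR163 above were not called and, with TMM, lay above Col-0 in both mutant libraries. miR162a-3p shares its reads with miR162b-3p, so its level cannot be assigned to MIR162a, and with all aligned reads it turned to -0.16. MIR162b, with 0 and 1 counts in janus-2 and 4 and 5 counts in Col-0, was not tested. Whether the 2 kinds of measurement differ was not tested, and the libraries of each kind were made and scaled separately.

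MIR168a also fell, from few reads, with 9 and 12 counts in janus-2 and 29 and 40 counts in Col-0 (-1.69, SE 0.66, adjusted p = 0.000519). MIR447b fell (-0.82, SE 0.48, adjusted p = 0.0240), with 28 and 28 counts in janus-2 and 45 and 55 counts in Col-0, and lost its call with DESeq2 and with any 1 library left out. MIR390a had 1 and 1 counts in janus-2 and 2 and 8 counts in Col-0, and MIR390b 1 and 1 counts in janus-2 and 2 and 4 counts in Col-0, so that no precursor change could be measured at the loci whose passenger strands fell. MIR400, MIR401, MIR402, MIR413, MIR420 and MIR472 overlap other genes in the RefSeq annotation of TAIR10.1, and whether the counting used strand is not given in the sources used here.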

How the data were processed

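Small RNA and mRNA libraries of inflorescences were deposited as 1 count table per library. Per the submitters' processing notes, Bowtie, HTSeq and the TAIR10 build were used, in versions not given in the sources used here. The authors deposited raw counts per mature miRNA (427 entries) or gene (28775 genes), with no normalization. Lines that name no gene were left out. They held between 96.4% and 97.1% of the small RNA counts outside the entries and between 0.0652% and 0.0825% as ambiguous. For mRNA they held between 1.11% and 1.13% outside genes and between 2.15% and 2.34% as ambiguous.

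Counts were tested with edgeR 4.0.16 in R 4.3.3 (filterByExpr, TMM, glmQLFit, glmQLFTest), with Benjamini-Hochberg adjustment over all entries of an assay. A miRNA needed an adjusted p up to 0.05 for a call, and a gene also a fold change of at least 1.5. CPM values are scaled by TMM, with standard errors taken from DESeq2 1.42.0. Arm balance was tested as the interaction of arm and genotype at loci whose weaker arm had at least 10 counts in at least 2 libraries. limma 3.58.1 and DESeq2 served as alternatives, beside other scalings, no filter and leaving out each library. Entries of 1 family were treated as sharing reads when each library held at least 3 counts of both, differing by at most 10%. Fits were tested on simulated data. Symbols and overlaps of genes came from RefSeq (TAIR10.1), which matched 28009 genes.

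Single libraries were printed for miR162, miR168, miR403, miR173 and miR390, for called entries and for those averaging at least 100 CPM. The gene lists hold textbook targets, pathway genes and markers. The values of 1 uncalled target gene are not reported here. The rule that picks entries by family number uses no measured value, but it and the lists were drawn up with earlier results of these data known. The paper describes the 2 libraries of each genotype and assay as biological replicates. Nothing in the labels says that replicates came from separate plants, so p-values measure the spread between these libraries. Replicates differed by more than sampling noise (chi-square divided by its degrees of freedom was 53.5 in janus-2 and 145 in Col-0 for small RNA, and 2.51 in janus-2 and 2.34 in Col-0 for mRNA). Figures were drawn with matplotlib 3.10.9.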

Additional observations from a re-analysis of the deposited data

How the results depend on the processing

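Precision was limited by 2 libraries per genotype and by the spread of the small RNA libraries. Calls of low-number miRNAs were 4 lower with library totals and 6 lower with all aligned reads, against 2 with TMM. Over all miRNAs, 83 were lower with all aligned reads and 34 higher with DESeq2. Near-identical entries counted 1 time gave 1 low-number miRNA higher. With each library left out, low-number miRNAs lower numbered 2 to 5, those higher 0 to 2, and all miRNAs higher 36 to 71. For arm balance the range was 1 to 14 over all loci and 0 to 2 in the list. Pathway genes higher ranged from 0 to 1.

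The replicate numbers come from the titles and did not pair the libraries (correlation of deviations -0.15 for small RNA and -0.02 for mRNA). A replicate block gave 1 low-number miRNA higher (miR391-3p, 1.05, adjusted p = 0.0416), and in limma's arm balance it left 0 calls over all loci and 0 in the list. Crossed pairing, chosen after seeing the data, gave 4 low-number miRNAs lower and 1 higher, and 50 lower and 58 higher over all miRNAs.

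With no fold threshold, 9778 genes were lower and 9324 higher, among them 11 targets lower and 8 higher and 6 pathway genes lower and 7 higher.

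Among values that were never called, signs turned as follows. The log2 fold change was -0.091 for miR391-5p with library totals. With all aligned reads it was -0.25 for miR391-5p, -0.16 for miR162a-3p, -0.19 for miR162b-3p, -0.10 for miR173-3p, -0.033 for miR447a.2-3p and -0.0067 for miR472-3p. For miR403-3p it was 0.00010 with near-identical entries counted 1 time, and for ARF3 0.0053 with no filter. With each library left out the log2 fold change ranged from -0.49 to 0.32 for miR158a-5p, from -0.015 to 0.39 for miR162b-3p, from -0.35 to 0.044 for miR168a-5p, from -0.36 to 0.058 for miR168b-3p, from -0.33 to 0.061 for miR168b-5p, from -0.062 to 0.24 for miR391-5p and from -0.31 to 0.17 for miR403-3p. The change of the arm ratio ranged from -0.16 to 0.56 for miR162a, from -0.13 to 0.82 for miR162b, from -0.090 to 0.61 for miR168a and from -0.38 to 0.41 for miR168b. In the mRNA libraries the range was -0.036 to 0.031 for ARF3, -0.27 to 0.13 for AT1G62720, -0.053 to 0.22 for AT5G41170 and -0.020 to 0.23 for MIR447a. The cause of these changes was not tested.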

Other observations

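Reads on MIR genes and reads on their mature products did not go together at 3 loci. MIR414 had 700 and 705 counts in the janus-2 mRNA libraries and 846 and 1094 counts in those of Col-0, but miR414 had 3 and 4 counts in the janus-2 small RNA libraries and 5 and 0 in those of Col-0. MIR413 had 12 and 12 counts in janus-2 and 9 and 7 counts in Col-0, and MIR419 had 3 and 10 counts in janus-2 and 17 and 10 counts in Col-0, while miR413 and miR419 were at 0 in all 4 small RNA libraries. MIR161 had 2 and 0 counts in janus-2 and 0 and 1 counts in Col-0.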
